A study of Mus musculus with 2 samples.

Results

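The MHC class II genes examined here were 7 of the 32285 genes in 2 droplet single-cell RNA libraries of mouse blood. The choice was by symbol, with earlier results of these data known. The 7 genes were Cd74, H2-Aa, H2-Ab1, H2-Eb1, H2-DMa, H2-DMb1 and Ciita, and all had a row in both count matrices. One library came from WT mice (C57BL/6J) and the other from APP/PS1 mice, which carry transgenes for human amyloid precursor protein and a mutant presenilin and serve as an amyloid model of Alzheimer's disease. Each library pooled blood of 3 female mice aged 7 months, taken by cardiac puncture, cleared of red cells with ammonium chloride and enriched for neutrophils with a negative selection kit. No mouse was treated. With 1 library per genotype there was no replicate, so genotype and library cannot be told apart, no test was possible, and 95% intervals cover counting error only. UMIs of 1 gene can lie in few cells, so the true uncertainty is larger than these intervals.

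The WT library held 17123 cells and 92458623 UMIs, and the APP/PS1 library 17645 cells and 84870864 UMIs. A UMI marks 1 captured RNA molecule. Filters on UMIs, genes and mitochondrial RNA left 14564 and 15208 cells. Although the labels call the cells neutrophils, the clusters also held B cells, monocytes, T cells, NK cells, plasma cells, basophils and erythroid cells. Levels are counts per 1000000 UMIs (CPM) of the cells named, WT first and APP/PS1 second throughout. A UMI counts a molecule once whatever its length. Levels of different genes are set side by side on that basis, without a check of how evenly genes were captured and mapped. The libraries shared 83 cell barcodes, which were 0.485% of the WT and 0.470% of the APP/PS1 cells.

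Class II molecules are pairs of an alpha and a beta chain that display peptides from endosomes to CD4 T cells. The invariant chain, CD74, blocks the peptide groove until the complex reaches the endosome, and H2-DM then exchanges the remaining fragment for peptide, a step that H2-O restrains in B cells. CIITA is the transactivator that switches the family on in B cells and dendritic cells, and in other cells after interferon gamma, by docking on factors bound to the X and Y boxes of each promoter.

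In GRCm38 coordinates, 5 of the 7 genes lay within 197 kb of chromosome 17. H2-DMa (chr17:34119541-34139101, plus strand) and H2-DMb1 (chr17:34153072-34160230, plus) encode the alpha and beta chains of H2-DM. H2-Ab1 (chr17:34257689-34269419, plus) and H2-Aa (chr17:34282744-34287823, minus) encode the I-A pair. H2-Eb1 (chr17:34305867-34316674, plus) encodes the I-E beta chain. Ciita lay at chr16:10480059-10528418 on the plus strand, and Cd74 was on another chromosome. The alpha chain of I-E was not analysed here, so H2-Eb1 RNA is not read as a sign of a displayed I-E pair. H2-DMa overlapped Brd2 (chr17:34112023-34122634, minus) on the opposite strand. H2-DMb1 and its neighbour H2-DMb2 (chr17:34143307-34151555, plus) are close paralogs, so the split of reads between them is uncertain.

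The promoters are shown because the family shares a control element and because H2-DMb1 and H2-DMb2 differed between B and dendritic-like cells in opposite directions. Promoter sequence (RefSeq, GRCm38.p6) was matched for 4 of the 7 genes (H2-Aa, H2-Eb1, H2-DMb1 and H2-DMa). It is printed on the strand of the gene for 3 of them and for the paired genes H2-DMb2 and H2-Ob, with capitals marking matches to CTNGNAACT, the core of the X box, and TGATTGG, the Y box.
H2-Aa, chr17:34287844-34287923, minus: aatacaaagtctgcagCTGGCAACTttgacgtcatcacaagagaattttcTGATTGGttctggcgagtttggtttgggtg
H2-Eb1, chr17:34305756-34305835, plus: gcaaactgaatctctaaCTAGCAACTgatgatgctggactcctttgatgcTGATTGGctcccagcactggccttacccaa
H2-DMb1, chr17:34153090-34153119, plus: ttacCTAGTAACTgatgatgctaggctgat
H2-DMb2, chr17:34145107-34145186, plus: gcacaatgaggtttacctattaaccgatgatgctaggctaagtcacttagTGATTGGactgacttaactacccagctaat
H2-Ob, chr17:34238796-34238875, plus: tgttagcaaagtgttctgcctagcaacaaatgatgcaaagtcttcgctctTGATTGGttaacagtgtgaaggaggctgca

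The letters of both motifs were read off these promoters, so a match is a description and not a site. Distances are counted from the RefSeq transcript start, which for H2-DMb1 and H2-DMb2 lies downstream of the GENCODE gene start given above, so that their printed stretches lie inside the GENCODE gene. The Y box began 50 bases before the start of H2-Aa, 61 before H2-Eb1 and 63 before H2-DMb1 (downstream of the stretch printed), and the X core began 34, 33 and 34 bases upstream of it. Searched on both strands over 32851 windows of 300 bases, the Y box was in 7.82% and the X core in 4.1%. The X core followed within 20 to 50 bases by the Y box was in 6 windows (0.0183%), 3 of which were these members. H2-DMb2 and H2-Ob carried the Y box without an exact match to the X letters, and neither motif was found in the windows of H2-DMa. Because the letters came from the matching promoters, a miss does not show that an X box is absent. A relation of these matches to the levels by cell type was not tested.

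Class II RNA was unevenly spread over the cell types. B cells were 1.73% and 1.81% of the cells kept and held 19.8% and 31.5% of all UMIs of the 7 genes. A small cluster led by Cd209a, a lectin of dendritic cells, was 0.74% and 0.47% of the cells and held 15.5% and 12.4%. Classical monocytes were 12.2% and 8.54% of the cells and held 29.2% and 22.8%. Nonclassical monocytes were 17.3% and 10.5% of the cells and held 13.9% and 14.7%. Monocyte clusters that also had neutrophil genes were 6.21% and 4.64% of the cells and held 12.8% and 9.60%. The largest neutrophil cluster made up 42.6% and 43.1% of the cells and held 1.53% and 1.64%. B cells (252 and 275 cells) were named by 7687 and 7884 CPM of B cell markers such as Cd79a and Ms4a1. The Cd209a cluster (108 and 71 cells) is called dendritic-like because it also had Flt3 (109 and 91.5 CPM) and Clec10a (176 and 150 CPM), each at most 0.82 CPM in B cells. Other dendritic cell markers did not run that way. Wdfy4 was at 68.4 and 80.1 CPM in the cluster against 160 and 166 CPM in B cells. Itgax was at 22.4 and 21.2 CPM against 134 and 114 CPM in nonclassical monocytes. Xcr1 had no UMI in the cluster, and its monocyte markers summed to 7027 and 6199 CPM. Cd7, Klrd1 and Klrk1, genes known from NK cells, were among its leading genes. Class II genes were among its leading genes, although none of the 7 was used to form clusters, so their high level there describes the cluster.

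**Figure D1:**
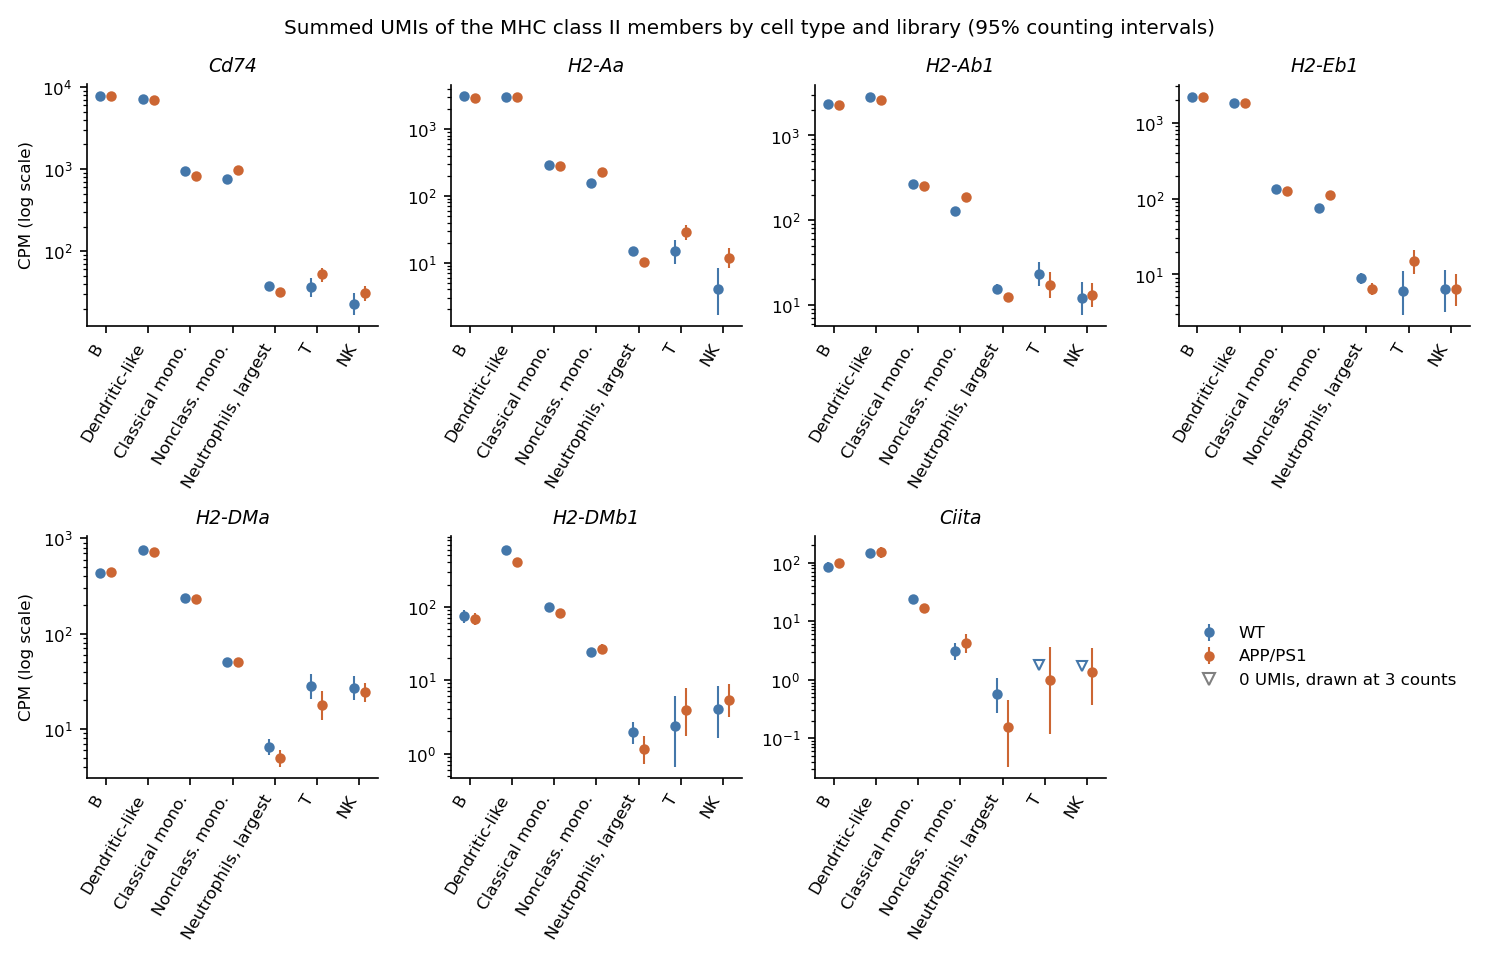
Level of each of the 7 class II genes (CPM, log axis) in 7 cell types, with 1 point per library, bars for the 95% counting interval and open triangles at 3 counts where a library had 0 UMIs. Cd74, for example, is at 7745 and 7704 CPM in B cells, 955 and 831 in classical monocytes and 38.1 and 31.6 in the largest neutrophil cluster.

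Cd74, the invariant chain (chr18:60803848-60812652, plus strand), was the most abundant member in B cells, at 7745 and 7704 CPM, and in dendritic-like cells, at 7143 and 6962 CPM. Classical monocytes had 955 and 831 CPM and nonclassical monocytes 768 and 972 CPM. The order of the 2 monocyte types thus differed between the libraries. T cells had 36.7 and 52.2 CPM, the largest neutrophil cluster 38.1 and 31.6 CPM and NK cells 23.1 and 30.8 CPM.

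The chains that bind peptide were also highest in B and dendritic-like cells. H2-Aa stood at 3088 and 2877 CPM in B cells, 3005 and 3046 in dendritic-like cells, 292 and 282 in classical monocytes and 154 and 227 in nonclassical monocytes. H2-Ab1 was at 2345 and 2299 CPM in B cells, 2853 and 2632 in dendritic-like cells, 267 and 251 in classical monocytes and 127 and 186 in nonclassical monocytes. B cells exceeded classical monocytes 10.6-fold and 10.2-fold for H2-Aa and 8.79-fold and 9.15-fold for H2-Ab1. H2-Eb1 had 2184 and 2201 CPM in B cells, 1824 and 1819 in dendritic-like cells, 132 and 126 in classical monocytes and 74.3 and 112 in nonclassical monocytes. For the sum of the 7 genes, the difference of dendritic-like from B cells was 0.03 (upper bound 0.06) and 0.00 (upper bound 0.04) log2, whereas B cells exceeded classical monocytes 7.95-fold and 8.62-fold.

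Of the chains of H2-DM, the peptide exchanger, H2-DMa followed that order and H2-DMb1 did not. H2-DMa was 435 and 442 CPM in B cells, 754 and 722 in dendritic-like cells, 237 and 229 in classical monocytes and 50.4 and 50.2 in nonclassical monocytes. Classical monocytes thus had 81.1 and 81.4 H2-DMa UMIs per 100 of H2-Aa, against 14.1 and 15.4 in B cells. H2-DMb1 was 74.2 and 68.0 CPM in B cells, below the 98.9 and 82.7 CPM of classical monocytes, and reached 597 and 404 CPM in dendritic-like cells.

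Between dendritic-like and B cells, H2-DMb1 was the 1 member of 7 that differed by more than 1 log2 in both libraries, by 3.01 (95% interval 2.69 to 3.35) and 2.57 (2.23 to 2.91). Of all genes tested, 13% were higher in dendritic-like cells by that rule and 8.67% lower. H2-DMb2, the other beta chain of H2-DM, ran the opposite way, at 349 and 377 CPM in B cells against 11.8 and 11.4 CPM in dendritic-like cells. H2-DMb1 accordingly gave 17.5% (14.4 to 21.1) and 15.3% (12.7 to 18.2) of the UMIs of the pair in B cells, and 98.1% and 97.2% in dendritic-like cells. Classical monocytes had 96.7% and 97.5% and nonclassical monocytes 92.2% and 93.7%. The chains of H2-O, the restrainer of H2-DM, were also at their higher level in B cells. H2-Ob had 335 and 252 CPM there against 14.96 and 22.9 (14 UMIs each) in dendritic-like cells, and H2-Oa 148 and 113 CPM against 28.9 and 40.8. H2-Eb2, a further beta chain gene, had 42 and 52 UMIs in B cells and 0 in dendritic-like cells.

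**Figure D2:**
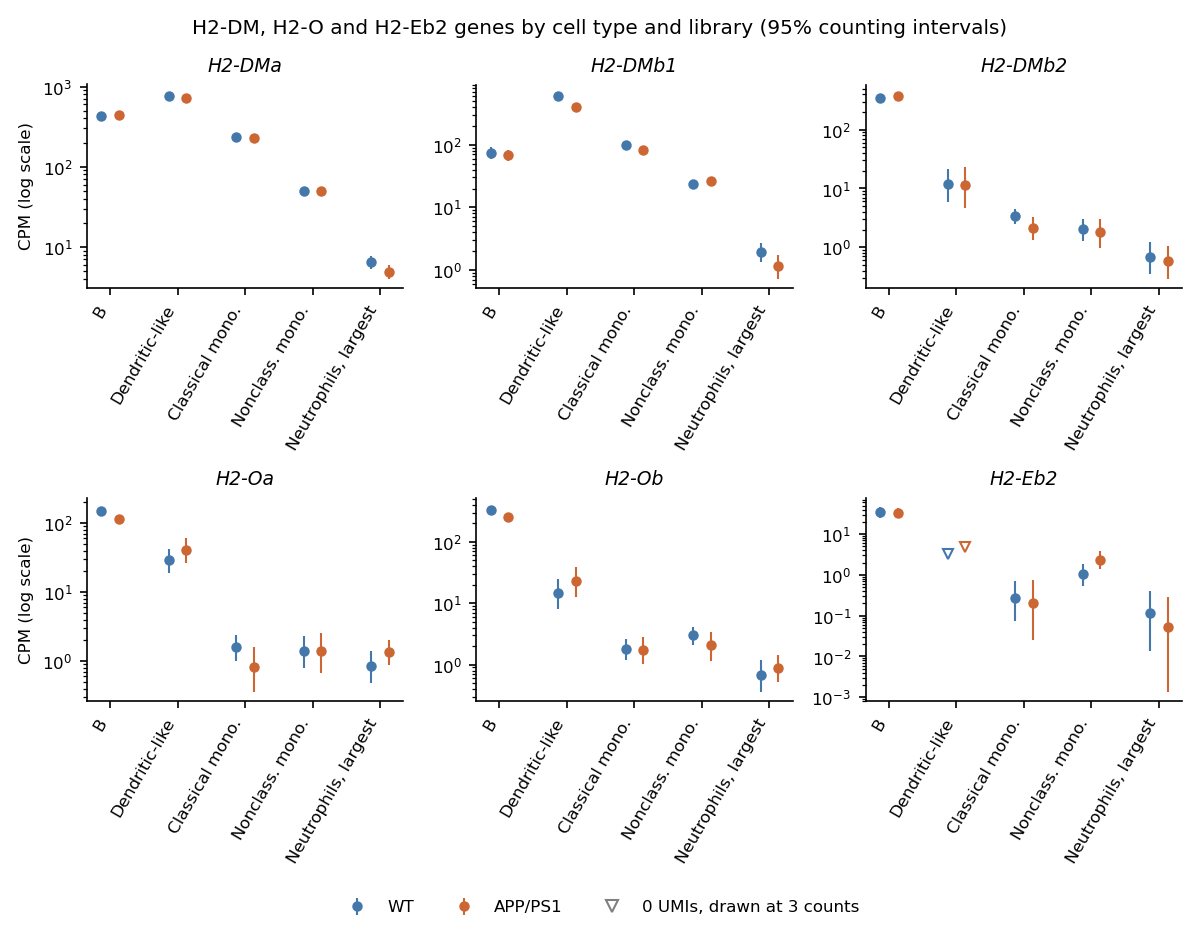
Level (CPM, log axis) of the H2-DM and H2-O chains and of H2-Eb2 by cell type, with 1 point per library, 95% counting intervals and open triangles at 3 counts where a library had 0 UMIs. H2-DMb2 and H2-Ob are high in B cells and low in dendritic-like cells, and H2-DMb1 is highest in dendritic-like cells at 597 and 404 CPM.

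Ciita, the transactivator, had 85.6 and 97.5 CPM in B cells, 144 and 152 in dendritic-like cells, 24.4 and 17.05 in classical monocytes and 3.07 and 4.29 in nonclassical monocytes. It had the lowest level of the 7 genes in classical and nonclassical monocytes. In plasma cells (36 and 67 cells), the antibody-secreting end stage of B cells, Ciita had 0 UMIs in both libraries. The 7 genes summed there to 6145 and 7923 CPM. In so few cells 0 UMIs allow up to 33.6 and 20.98 CPM (3 counts). These bounds lie below the Ciita levels of B cells but above those of classical monocytes, so absence of Ciita was not shown. B cell markers in the plasma cell cluster summed to 2613 and 3098 CPM. In T cells Ciita had 0 and 2 UMIs and in NK cells 0 and 4.

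Between the monocyte types, 3 of the 7 genes were higher in classical cells by more than 1 log2 in both libraries, where 6.17% of all genes were, and none was lower, where 5.89% were. These were H2-DMa (2.23 and 2.19), H2-DMb1 (2.04 and 1.62) and Ciita (2.99 and 1.99). Classical monocytes are the Ly6C-high cells that enter tissue, and nonclassical monocytes the Ly6C-low cells that patrol vessels. For Cd74 the log2 difference was 0.32 in WT and -0.23 in APP/PS1, and for H2-Aa 0.93 and 0.31. The genes of H2-DM and Ciita thus separated these types by more than Cd74 and H2-Aa did.

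**Figure D3:**
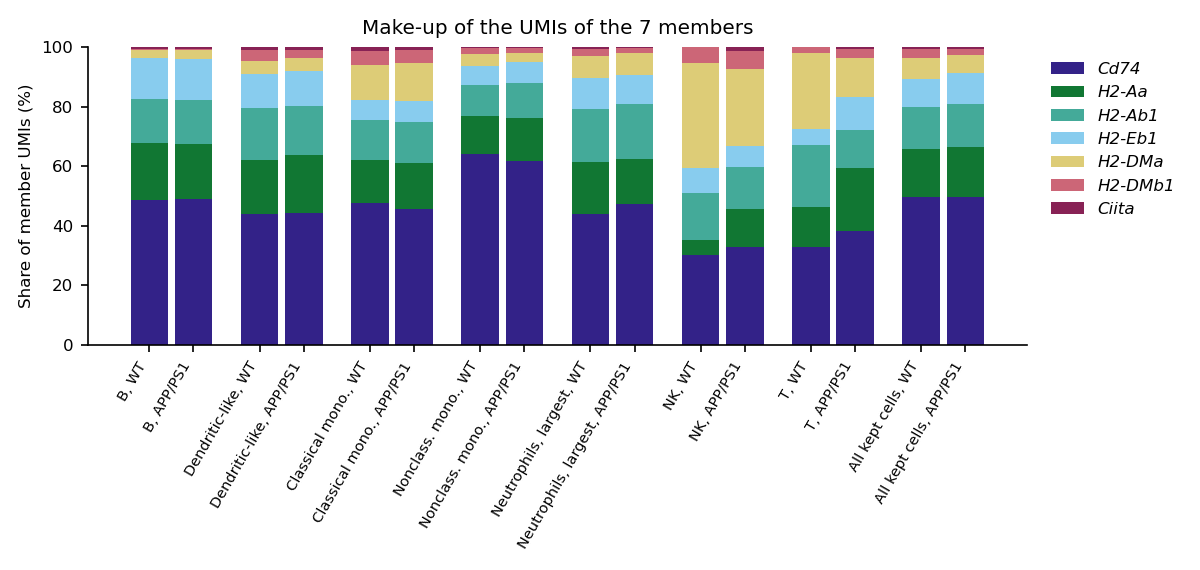
Percent of the UMIs of the 7 genes given by each gene, in stacked bars for each cell type and library. Cd74 gives 48.5% and 49.1% in B cells and 64.0% and 61.6% in nonclassical monocytes, and H2-DMa gives 35.3% and 26.1% in NK cells.

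Single cells were compared after thinning each to 1000 UMIs, which left out 2 neutrophils and 1 NK cell of APP/PS1. At that depth 92.9% (88.9 to 95.7) and 94.2% (90.7 to 96.6) of B cells held UMIs of 3 or more of the 7 genes, against 11.9% and 8.78% of classical monocytes and 4.25% and 4.97% of nonclassical monocytes. In dendritic-like cells 100% and 84.5% (74.0 to 92.0) held at least 1 such UMI, so some APP/PS1 cells of that cluster had none at this depth. The median B cell had 17 and 16 class II UMIs per 1000, and the median monocyte of either type had 0. The tenth of cells with most class II UMIs held 17.1% and 17.9% of them in B cells, but 70.0% and 76.5% in classical monocytes and 70.6% and 72.5% in nonclassical monocytes. At this depth most class II UMIs of monocytes thus lay in few cells. This share is larger where fewer cells hold any such UMI, and it was 100% in the largest neutrophil cluster of both libraries. In classical monocytes before thinning, H2-DMa was seen in 77.4% and 74.8% of cells and H2-Aa in 24.2% and 20.02%. H2-DMa was thus the more widely detected of these genes even though H2-Aa had the higher mean level there.

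**Figure D4:**
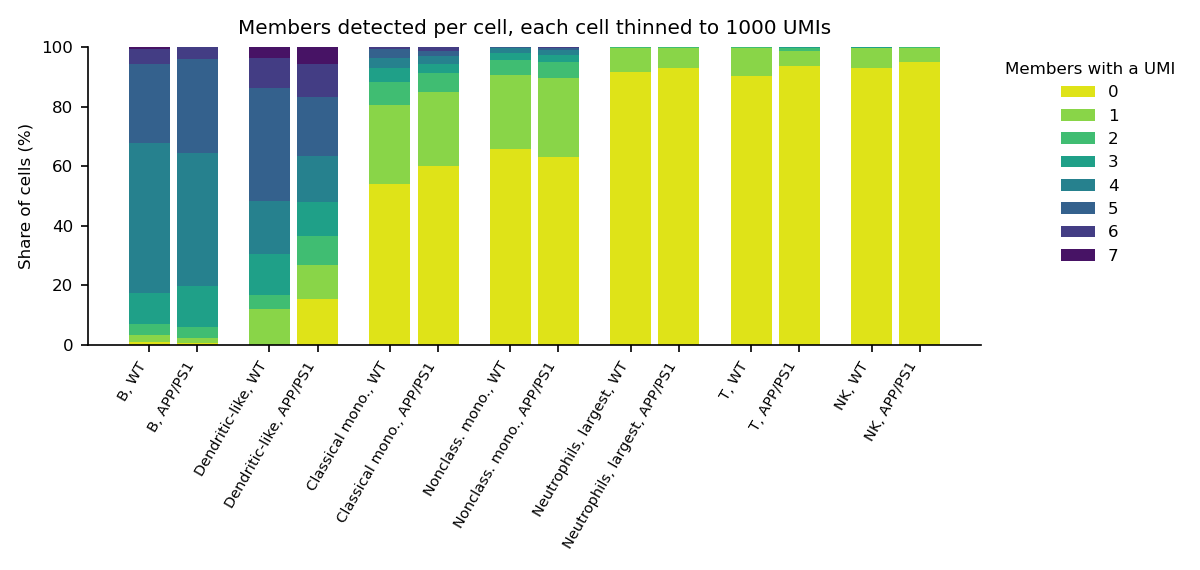
Share of cells (percent) with UMIs of 0 to 7 of the class II genes, in stacked bars for each cell type and library, after thinning every cell to 1000 UMIs. In B cells 92.9% and 94.2% hold 3 or more of the genes, against 4.25% and 4.97% of nonclassical monocytes, and the bars of neutrophils, T and NK cells are nearly all at 0.

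In neutrophils the class II signal was read against T and NK cells, which should lack most of these genes. After thinning, 8.33% (7.65 to 9.04) and 7.05% (6.44 to 7.70) of the largest neutrophil cluster had any class II UMI, against 9.59% and 6.28% of T cells and 7.19% and 4.99% of NK cells. Without thinning the shares were 20.5% and 17.03% of neutrophils, 34.2% and 20.2% of T cells and 24.5% and 20.6% of NK cells, at median depths of 2531 and 2626, 4243 and 3493, and 3591 and 3360 UMIs. The summed level was 86.4 and 66.8 CPM in neutrophils, 112 and 136 in T cells and 76.7 and 93.4 in NK cells, so that the log2 of the sum in neutrophils over NK cells was 0.17 (-0.08 to 0.44) in WT and -0.48 (-0.67 to -0.29) in APP/PS1. That was 5.66% and 5.21% of the level over all kept cells of the library for neutrophils, and B cell markers in neutrophils were at 8.08% and 8.57% of theirs. The B cell marker value rests mainly on Bank1, which gave 10.3 and 15.8 CPM of the 16.8 and 22.3 CPM summed in neutrophils. Cd79a was at 1.38 and 1.73 CPM there. In APP/PS1 the share of positive cells and the summed level ordered these types differently, so no order was read, and neutrophil class II UMIs could not be told apart from background. No cell of the largest neutrophil cluster had more than 5 class II UMIs per 1000. Outside T and NK cells, the sum was 303 and 127 CPM in erythroid cells and 334 and 69.0 CPM in basophils. Both types thus exceeded neutrophils in WT and were lower in APP/PS1 than in WT. Called doublets were 11.5% and 5.47% of T cells, 9.21% and 12.1% of NK cells and 45.0% and 57.9% of erythroid cells. In the largest neutrophil cluster they were 0.26% and 1.66%. H2-DMa stood higher in NK cells, at 27.1 and 24.4 CPM, than in neutrophils, at 6.49 and 4.93 CPM. The difference, -2.06 and -2.31 log2 for neutrophils over NK cells, was larger than counting error. H2-DMb1 was 4.04 and 5.42 CPM in NK cells against 1.95 and 1.15 CPM in neutrophils, a difference beyond counting error in APP/PS1 (-2.23, -3.23 to -1.21) and not in WT (-1.05, -2.25 to 0.37).

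For APP/PS1 against WT within each cell type, a gene was tested with at least 50 UMIs over both libraries and counted past the fold at more than 0.5 log2. In B cells none of the 7 genes passed, where 6.57% of all genes were higher and 6.38% lower, and the median over members was -0.01 against 0.01 over all genes. The summed level was 15956 and 15689 CPM (-0.02). The 3 subclusters of B cells held 148, 84 and 20 cells in WT and 167, 32 and 76 in APP/PS1, and their summed levels differed by 0.10, -0.10 and -0.25, with counting intervals that did not include 0. Erythroid genes differed between these B cells, at 11979 and 3120 CPM, and their part in the B cell values was not tested. In dendritic-like cells H2-DMb1 alone passed, lower in APP/PS1 (-0.57, -0.79 to -0.35), where 10.3% of all genes were lower and 6.44% higher. With called doublets removed and the cells clustered again, no member was lower by that rule. Called doublets were 0% of the dendritic-like cells in both libraries, so none of these cells was itself removed. In classical monocytes Ciita alone passed, also lower (-0.52, -0.79 to -0.25), where 4.18% of all genes were lower and 3.08% higher, and it no longer passed in clusters from 30 principal components (-0.49) or without an interferon-led subcluster (-0.47). Cd74 in classical monocytes was lower by less than the rule (-0.20, -0.24 to -0.16).

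Nonclassical monocytes (2520 and 1590 cells) had more class II RNA in the APP/PS1 library, 1200 and 1579 CPM in sum (0.40, 0.36 to 0.43). H2-Aa (0.57, 0.47 to 0.66), H2-Ab1 (0.55, 0.44 to 0.66) and H2-Eb1 (0.59, 0.45 to 0.73) passed the fold upwards, 3 of 7 where 3.28% of all genes did, and none passed downwards, where 4.49% did. The median over members was 0.48 and over all genes -0.02. Cd74 was higher by 0.34 (0.30 to 0.39). The genes of H2-DM did not differ beyond counting error, with H2-DMa at -0.01 (-0.20 to 0.19) and H2-DMb1 at 0.16 (-0.11 to 0.43). Ciita had 35 and 31 UMIs, a difference of 0.48 (-0.27 to 1.22).

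In nonclassical monocytes H2-Aa and H2-Ab1 were higher although the share of cells with them before thinning hardly differed. H2-Aa was seen in 14.1% and 13.8% of these cells, and H2-Ab1 in 15.1% and 15.2%, at median depths of 4089 and 4310 UMIs. After thinning, H2-Ab1 was seen in 5.63% and 7.23% and Cd74 in 28.1% (26.3 to 29.9) and 31.6% (29.3 to 33.9). Any member was seen in 34.3% and 37.0%. Cells with 10 or more class II UMIs per 1000 were 45 of 2520 in WT, 1.79% (1.31 to 2.38), and 50 of 1590 in APP/PS1, 3.14% (2.34 to 4.12), against 85.7% and 84.7% of B cells. After thinning, no member passed 0.5 log2 (H2-Aa 0.49, H2-Ab1 0.44 and H2-Eb1 0.37), and the sum was higher by 0.36. B cell markers in nonclassical monocytes were at 48.7 and 37.5 CPM. Dendritic cell markers summed to 198 and 176 CPM, nearly all from Itgax (134 and 114) and Wdfy4 (61.8 and 58.0), while Cd209a was 0.26 and 0.69, Clec10a 1.05 and 2.08 and Xcr1 0 CPM. The part of such cells in the difference was not tested. The summed level was also higher in APP/PS1 in plasma cells (0.37, 0.22 to 0.52) and T cells (0.28, 0.01 to 0.56), and in 1 of the 2 monocyte subclusters with neutrophil genes (0.67, 0.58 to 0.75), whereas the other was lower (-0.14, -0.19 to -0.09). In T cells 2 of the 4 genes tested were above 0, with a median of 0.04, and H2-DMa was at -0.66. After thinning, 9.59% and 6.28% of T cells had any class II UMI.

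**Figure D5:**
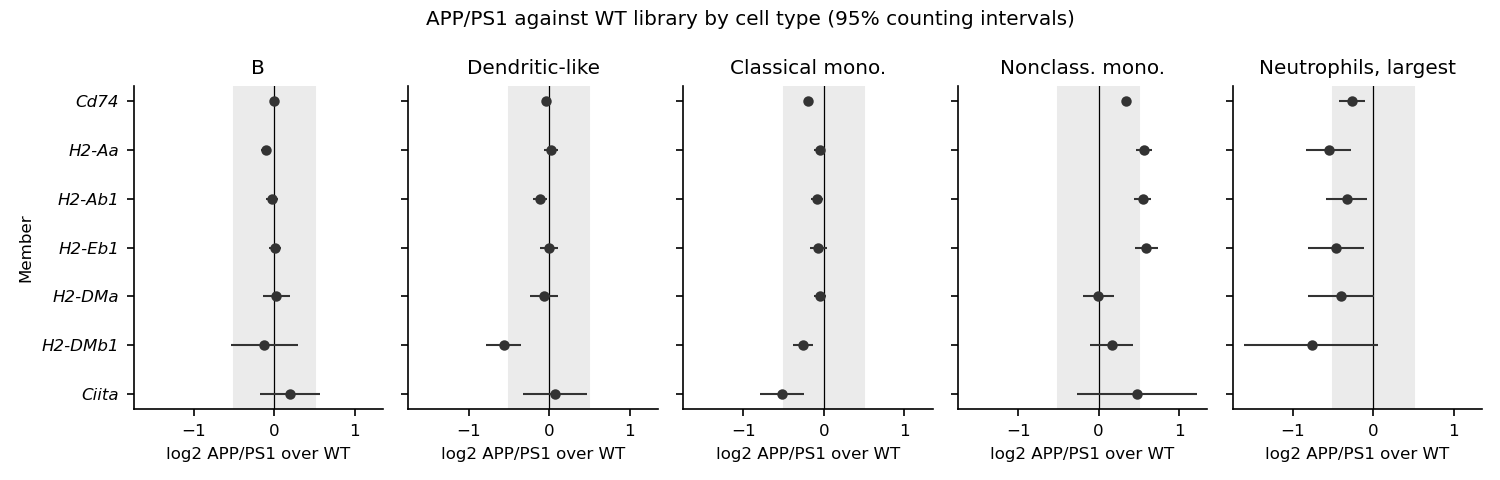
Log2 of APP/PS1 over WT for each gene with at least 50 UMIs, by cell type, with 95% counting intervals, 1 library per genotype and a grey band for differences within 0.5. Nonclassical monocytes have H2-Aa, H2-Ab1 and H2-Eb1 at 0.55 to 0.59, and the largest neutrophil cluster has every gene drawn below 0.

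In the largest neutrophil cluster the summed level was lower in the APP/PS1 library (-0.37). Of 6 genes tested, H2-Aa (14.9 and 10.1 CPM, -0.56, -0.83 to -0.28) and H2-DMb1 (1.95 and 1.15 CPM, -0.76, -1.60 to 0.06) passed the fold downwards and none upwards, where 5.04% of all genes were lower and 5.63% higher. The median over the 6 was -0.43 and over all genes 0.05. The level over all kept cells was lower as well, 1528 and 1281 CPM, and its part in the neutrophil difference was not tested. In neutrophils with platelet and interferon genes, 0 of 5 members tested passed, where 6.28% of all genes were higher and 5.04% lower.

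Lists of 43 genes around the pathway were read in the same way. They cover the other class II genes, the factors that work with CIITA, repression and turnover, peptide processing, the interferon gamma input, costimulation, partners of CD74 and neighbours on chromosome 17. Of these, 1 of 38 tested passed upwards and 2 downwards in nonclassical monocytes, where 3.28% and 4.49% of all genes did. In classical monocytes 0 and 2 of 39 passed, where 3.08% and 4.18% of all genes did. The counts were 1 and 2 of 40 in B cells (6.57% and 6.38% of all genes) and 3 and 3 of 30 in dendritic-like cells (6.44% and 10.3%). Counts this small were not read as a result about the lists. The 3 in nonclassical monocytes were Cd40 (0.52), a receptor for T cell help, Prdm1 (-0.52), a repressor of Ciita, and Cd80 (-1.28), a costimulatory ligand. None of the 7 genes of the interferon gamma input passed in nonclassical monocytes, with a median of 0.01, and no gene of the factors that work with CIITA passed there, with a median of -0.08. Tap1, Tap2, Psmb8, Psmb9 and Brd2, which share the chromosome 17 region, gave 0 of 5 past the fold in B cells, dendritic-like cells, both monocyte types and neutrophils. Their median in the largest neutrophil cluster was 0.27. With so few genes per list, counts of 0 were not read as a result either. Cst3, the protease inhibitor cystatin C, was higher in the APP/PS1 library in B cells, 227 and 766 CPM, and in dendritic-like cells, 3054 and 5490 CPM. Lgmn, an endosomal protease, was 55.4 and 30.2 CPM in B cells (-0.88, -1.45 to -0.32). Over monocytes and dendritic-like cells together, Cd80 was 16.7 and 8.31 CPM (-1.01, -1.25 to -0.77). The most abundant genes of the lists differed less over these cells, among them Ctss, the protease that trims CD74 (1286 and 1233 CPM), Spi1 (788 and 731 CPM), Ifngr1 (593 and 518 CPM) and Cd86 (60.3 and 67.7 CPM). Irf8, a factor of dendritic cells, was 190 and 386 CPM in dendritic-like cells (1.02).

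Across the 14 cell types of both libraries, 28 profiles, the genes whose level followed the sum of the 7 most closely were Irf4 (r = 0.942), Kynu (0.930), Ly86 (0.928), Ifi30 (0.928) and Bcl11a (0.918), out of 10526 ranked on Pearson's r of log2 CPM. Irf4 encodes a factor of B and dendritic cells, and Ifi30 a lysosomal thiol reductase that acts on antigen. The 21 pairs among the 7 genes had r of 0.77 to 0.99 with a median of 0.89. These profiles share libraries and free RNA, so the coefficients describe them and carry no test.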

How the data were processed

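Per the labels and methods, the authors made the deposited UMI counts with Cell Ranger 5.0.0 on the mm10 build from 10x v3.0 libraries. Here, counts were read in Python 3.11.15. Cells between the 5th and 95th percentiles of UMIs and genes in their library, with at most 10% mitochondrial UMIs, were clustered in Seurat 5.3.0 on R 4.3.3 (2000 variable genes without the members, 15 components, resolution 0.2). Clusters were named from marker lists, and mixed ones split at resolution 0.3. The naming thresholds were set after a trial clustering, and rebuilt names can differ from the study's. Scrublet (scanpy 1.11.5) called 9.04% and 7.29% of all cells doublets, with the WT threshold used for both libraries. They stayed in and were removed as an alternative. Clusters with neutrophil genes in monocytes (80.7% and 58.9% called doublets) and in B cells were kept apart.

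UMIs were summed per library and cell type. Intervals are exact Poisson (levels), exact conditional (ratios) and Clopper-Pearson (shares). Their code was tested on simulated data. A count of 0 allows up to 3 counts. Genes named were the members, listed pathway genes with at least 100 UMIs past the fold in B cells or in monocytes and dendritic-like cells together, up to 3 abundant examples per list, and the 5 most correlated genes. Irf8, Cd40, Prdm1 and H2-Eb2 were added after their values were seen. The members and lists were chosen with earlier results of these data known. Positions are from GENCODE M21. Alternatives included edgeR 4.0.16 TMM scaling, thinning to 1000 UMIs and other cell filters. One pathway gene is not reported here.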

Additional observations from a re-analysis of the deposited data

Results flagged for a closer look

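The APP/PS1 against WT difference ran in opposite directions in nonclassical monocytes and in some other cell types. The sums in plasma cells and T cells moved the same way as in nonclassical monocytes (0.37 and 0.28). Single genes in those types were mixed, with 3 of 4 tested above 0 in plasma cells and 2 of 4 in T cells. Each pair with nonclassical monocytes listed below had counting intervals on opposite sides of 0. The difference between cell types was not tested, since each genotype had 1 library. The sum of the 7 genes was 0.40 log2 higher in nonclassical monocytes, and -0.05 in dendritic-like cells, -0.14 in classical monocytes and -0.37 in the largest neutrophil cluster. Cd74 was 0.34 in nonclassical monocytes, -0.20 in classical monocytes and -0.27 in neutrophils. H2-Aa was 0.57 in nonclassical monocytes, -0.10 in B cells and -0.56 in neutrophils. For H2-Ab1 the value was 0.55 in nonclassical monocytes, -0.12 in dendritic-like cells, -0.09 in classical monocytes and -0.33 in neutrophils. H2-Eb1 was 0.59 in nonclassical monocytes and -0.46 in neutrophils.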

How the results depend on the processing

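The sum in nonclassical monocytes stayed 0.31 to 0.50 higher in APP/PS1 under every alternative run. Leaving out a replicate was not possible with 1 library per genotype. No paired analysis was possible because each genotype had 1 library and no test was made. Without the percentile limits, the sum in B cells over classical monocytes was 2.87 and 3.02 log2 (WT, APP/PS1), the sum in neutrophils over NK cells (0.17 and -0.48 in the report) -2.90 and -2.46, the dendritic-like sum -0.10, the nonclassical sum 0.44, and 0 classical members were lower. With doublets removed, the sum in neutrophils over NK cells in APP/PS1 turned to 0.067 and the dendritic-like sum to 0.011, with 0 members lower, in a cluster then led by other genes too. With the members kept among the clustering genes, these were -0.0061 and -0.11. With 30 components, B cells over classical monocytes in WT were 3.02, the sum in neutrophils over NK cells in WT -1.23 and the classical sum -0.11, with 0 members lower. In cells taken by marker UMIs, where only 24 and 14 dendritic cells remained, B cells over classical monocytes were 3.47 and 3.46, H2-DMb1 in dendritic-like over B cells 2.36 and 1.83, the sum in neutrophils over NK cells in APP/PS1 0.015, and the sums -0.064 in B cells, 0.54 in dendritic cells, -0.055 in classical and 0.50 in nonclassical monocytes. H2-Ab1 there turned to 0.74 in dendritic cells and 0.0032 in classical monocytes, 3 dendritic members were higher, 0 classical and 1 neutrophil member lower. TMM scaling gave a classical sum of -0.11. Leaving abundant gene classes out of the total gave 3.31 and 3.40 for B cells over classical monocytes and -0.054 for the B cell sum. The mean over cells gave 3.04 for B cells over classical monocytes in WT, -0.17 for the sum in neutrophils over NK cells in APP/PS1, and sums of -0.068 in B cells, -0.10 in dendritic-like cells and 0.31 in nonclassical monocytes. Thinning gave 2.68 and 1.89 for H2-DMb1 in dendritic-like over B cells, 3.14 for B cells over classical monocytes in APP/PS1, 0.39 for the sum in neutrophils over NK cells in APP/PS1, and sums of -0.090, -0.18, 0.36 and -0.24 in dendritic-like cells, classical and nonclassical monocytes and neutrophils. H2-Ab1 then turned to 0.061 in dendritic-like cells and 0.10 in neutrophils, and 0 nonclassical members were higher. Chosen after seeing the data, the whole B cell cluster gave 2.77 and 2.96 over classical monocytes and 0.045 between libraries. The cause of these moves was not tested. With minimums of 50, 20 and 0 UMIs, 308, 582 and 2511 genes were higher in nonclassical monocytes and 362, 901 and 3077 in B cells.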

Other observations

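Cells left out by the filters, 2559 in WT and 2437 in APP/PS1, held 26.4% and 25.99% of all UMIs of the 7 genes. An interferon-led subcluster of 97 classical monocytes had 3441 and 2027 CPM of the 7 genes (-0.76, -0.89 to -0.63), and the other classical monocytes 1971 and 1810 CPM (-0.12). In the order given for B cells, their 3 subclusters had 15138 and 16257, 18382 and 17119, and 16936 and 14234 CPM.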
